A study of Mus musculus with 6 samples.

Results

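The elastic fibre and microfibril genes are a list of 10 genes that encode the core protein elastin (Eln), the fibrillins (Fbn1, Fbn2), fibulins (Fbln1, Fbln2, Fbln5), EMILINs (Emilin1, Emilin2) and microfibril-associated glycoproteins (Mfap2, Mfap5). Members were taken by symbol, from probe sets that the platform annotation gives exactly 1 gene symbol. Of the 10 genes, 9 had 1 such probe set each and are described here, among 22180 genes tested. Fbn1 matched none and is not analysed here. The 9 genes were measured in total RNA of cultured lacrimal gland myoepithelial cells, which contract around the acini of this tear-producing gland, on Affymetrix Mouse Gene 2.0 ST arrays. The study compared female TSP1 null mice, its model of dry eye disease (3 arrays), with female wild-type C57BL/6J mice (3 arrays). Cells of both groups came from collagenase-digested exorbital glands and were kept untreated in culture with serum for some 2 to 3 weeks. The sources used here give neither the age of the mice nor the strain background of the null line, and genotype and background cannot be told apart.

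An elastic fibre has a core of cross-linked elastin and a mantle of fibrillin microfibrils. Fibulins and EMILINs link elastin to the microfibrils and to cells, and lysyl oxidases form the cross-links. Through latent TGF-beta binding proteins, microfibrils also hold the latent form of TGF-beta, which TSP1 (thrombospondin-1) can activate. The comparison between the groups therefore asks how genes of this matrix differ between gland cells cultured from mice labelled TSP1 null and from wild-type mice.

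All signals are deposited log2 values, and a difference is the mean of the null arrays minus the mean of the wild-type arrays. The 6 arrays had medians of 5.25 to 5.32 over all probe sets and correlated with each other at 0.978 to 0.988. The targeted gene, Thbs1, read 12.73 to 13.03 on the null arrays and 13.51 to 13.75 on the wild-type arrays, a difference of -0.68 (SE 0.13, n = 3 per group). Its signal stayed bright on the null arrays, and the sources used here do not say where its probes lie relative to the disrupted sequence, so this signal does not check the labels. Of the 9 markers listed for myoepithelial and basal cells 8 were measured. The contractile markers Acta2 (13.85 to 14.01) and Cnn1 (11.64 to 12.22) were bright on every array. The basal markers were dim: Trp63 (4.47 to 4.93) lay below the array medians, and Krt14 read 5.78 to 6.35 on the null and 4.93 to 5.52 on the wild-type arrays. Oxtr, the oxytocin receptor, was dim as well at 5.48 to 6.02, and Epcam, an epithelial adhesion molecule, read 4.77 to 5.17. The mean of the 8 myoepithelial and basal markers was higher on every null array (8.56 to 8.91) than on any wild-type array (8.36 to 8.50), but its members differed. Krt14, Krt17 and Trp63 did not overlap, where 10.1% of all genes were higher on every null array. The gap was 0.26 for Krt14, 0.07 for Krt17 and 0.02 for Trp63. Acta2, Tagln and Oxtr had slightly lower null means (differences -0.05, -0.04 and -0.05). Cnn1 (0.06) and Myh11 (0.40) had higher null means with overlap. The part of these markers in the differences of the elastic fibre genes was not tested. The mean of the 10 fibroblast markers ran from 9.87 to 10.56 on the null arrays and from 9.75 to 10.95 on the wild-type arrays. Col1a1 (12.56 to 13.53), Dcn (11.50 to 13.20), Pdgfra (11.27 to 12.11) and Thy1 (10.69 to 11.31) were bright on every array. Pi16 was dim (4.96 to 6.39), and Lum ran from 5.72 to 9.76. The identity of the cells was not tested. The mean of the 13 macrophage markers ran from 7.59 to 10.16 on the null arrays and from 9.96 to 10.81 on the wild-type arrays. All 13 had lower means in the null group. In RNA from a mixed culture, fewer cells of a type and less RNA per cell cannot be told apart. Arrays within a group are labelled as biological replicates, but not as coming from separate animals or cultures, and the p-values then reflect only the spread among these arrays, which may be technical.

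All 9 genes had a higher mean in the TSP1 null cultures, where 55.1% of all genes did, and the median difference was 0.52, against 0.02 over all genes tested. The genes fell into different patterns. Emilin1 and Fbln2 were higher on each null array than on any wild-type array, while Fbn2, Fbln1, Mfap2 and Fbln5 were spread so widely over the wild-type arrays that the groups overlapped. Mfap5 had nearly the same mean in both groups. With limma 0 of the 9 genes passed an adjusted p of 0.05, and so did 0% of all genes. At an unadjusted p under 0.05 there were 3 of the 9 genes (Emilin1, Fbln2 and Emilin2), all higher in the null group, where 6.28% of all genes were higher at that limit.

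**Figure D1:**
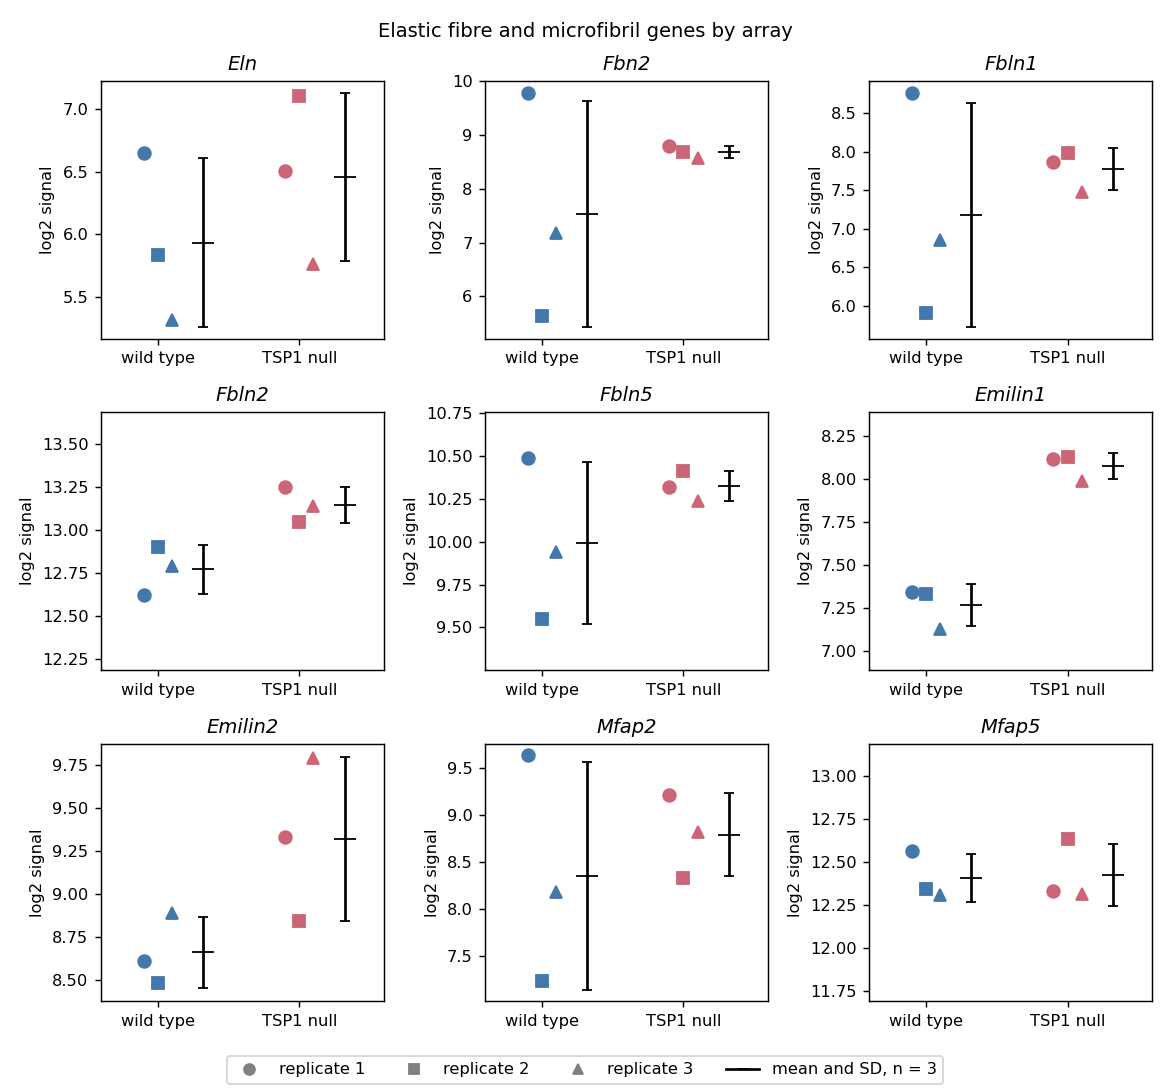
Log2 signal of each of the 9 measured genes (vertical axes, each panel on its own scale) on the 3 wild-type and 3 TSP1 null arrays, with marker shape for the replicate number and a bar for the mean and SD (n = 3). Emilin1 and Fbln2 have no overlap between the groups, and the wild-type signals of Fbn2 run from 5.63 to 9.79 while its null signals run from 8.57 to 8.81.

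The sequences around the start sites of 5 of the genes are shown because these genes carry the patterns described. They are Emilin1 and Fbln2, whose groups did not overlap, and Fbln1, Fbln5 and Mfap2, which had the same order of wild-type arrays. Fbn2 has no sequence shown. Each is the first listed start of the gene in RefSeq's table (GRCm38.p6), 300 bases long, written from 5′ to 3′ on the gene's strand. Capitals mark matches on either strand to 4 short motifs. The SMAD core element was searched as CAGAC. The AP-1 motif was searched as TGANTCA. For SP1 the letters were GGGCGG. For the TATA box they were TATAAA.

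Emilin1, chr5:30913536-30913835, plus strand: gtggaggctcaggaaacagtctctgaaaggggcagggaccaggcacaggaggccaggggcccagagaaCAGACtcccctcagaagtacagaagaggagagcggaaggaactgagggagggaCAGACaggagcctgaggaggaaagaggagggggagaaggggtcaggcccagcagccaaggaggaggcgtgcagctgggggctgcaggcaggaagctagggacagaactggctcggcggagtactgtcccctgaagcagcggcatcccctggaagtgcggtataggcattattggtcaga
Fbln2, chr6:91212514-91212813, plus strand: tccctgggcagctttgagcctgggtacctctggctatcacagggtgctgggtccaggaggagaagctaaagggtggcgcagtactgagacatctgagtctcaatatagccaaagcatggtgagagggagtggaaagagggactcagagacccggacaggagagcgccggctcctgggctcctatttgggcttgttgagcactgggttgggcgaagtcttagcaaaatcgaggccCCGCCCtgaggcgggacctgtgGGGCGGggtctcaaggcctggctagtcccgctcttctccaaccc
Fbln1, chr15:85205699-85205998, plus strand: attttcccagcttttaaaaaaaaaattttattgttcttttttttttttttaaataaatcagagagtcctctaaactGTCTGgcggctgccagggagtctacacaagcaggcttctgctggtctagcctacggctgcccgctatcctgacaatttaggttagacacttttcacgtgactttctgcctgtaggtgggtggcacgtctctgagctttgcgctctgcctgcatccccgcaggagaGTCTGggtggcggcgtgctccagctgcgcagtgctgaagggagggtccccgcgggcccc
Fbln5, chr12:101819070-101819369, minus strand: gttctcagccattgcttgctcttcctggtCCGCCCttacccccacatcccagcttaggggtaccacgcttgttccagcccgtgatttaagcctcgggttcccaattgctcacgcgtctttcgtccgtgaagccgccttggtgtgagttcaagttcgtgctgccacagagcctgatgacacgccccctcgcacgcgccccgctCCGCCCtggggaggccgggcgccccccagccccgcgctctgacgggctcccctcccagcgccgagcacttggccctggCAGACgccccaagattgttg
Mfap2, chr4:141010431-141010730, plus strand: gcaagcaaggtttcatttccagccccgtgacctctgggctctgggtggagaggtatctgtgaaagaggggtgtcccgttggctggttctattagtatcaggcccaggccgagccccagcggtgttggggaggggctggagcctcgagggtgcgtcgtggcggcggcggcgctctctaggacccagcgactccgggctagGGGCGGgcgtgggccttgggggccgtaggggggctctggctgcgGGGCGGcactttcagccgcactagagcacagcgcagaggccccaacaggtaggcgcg

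No capital letter belongs to more than 1 match. Emilin1 held 2 SMAD matches and no SP1 match, and Fbln2 the reverse, with 2 SP1 matches and no SMAD match. Among the genes with the same order of wild-type arrays, Fbln1 held 2 SMAD matches. Fbln5 held 1 SMAD and 2 SP1 matches, and Mfap2 held 2 SP1 matches. These counts depend on the start chosen: the other listed start held 2 SMAD and 2 SP1 matches for Fbln1, 2 SMAD and 0 SP1 for Fbln5, and 1 SMAD and 0 SP1 for Mfap2. The AP-1 and TATA motifs had 0 matches in the 5 printed windows. Of 32851 promoters of this length in the table, 49.6% held the SMAD motif, 7.81% AP-1, 35.7% SP1 and 13.6% the TATA box. A match says only that these letters are present.

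Emilin1 encodes EMILIN-1, a glycoprotein at the border of elastin and microfibrils that also restrains the processing of TGF-beta precursors. Its signals were 8.12, 8.13 and 7.99 on the null arrays and 7.34, 7.34 and 7.13 on the wild-type arrays. The lowest null array lay 0.65 above the highest wild-type array, and the SD was 0.08 in the null and 0.12 in the wild-type group. The difference was 0.81 (1.75-fold; SE 0.11, n = 3 per group), with a 95% interval of 0.54 to 1.07. It ranked 15th of 22180 genes by p and did not pass over all genes with limma (adjusted p = 0.178). With 1 array left out the difference stayed between 0.74 and 0.85, and the adjusted p of limma ran from 0.0771 to 0.738 over the 15 alternative settings.

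Emilin2 encodes EMILIN-2, a relative of EMILIN-1. It read 9.33, 8.84 and 9.79 on the null arrays and 8.61, 8.48 and 8.89 on the wild-type arrays. The groups overlapped, since the second null array lay below the third wild-type array. The difference was 0.66 (SE 0.24, 95% interval 0.11 to 1.21; limma adjusted p = 0.406). It was 0.42 without the third null array, where Emilin2 was highest. That array also had the lowest macrophage marker mean, 7.59. After each group's mean was subtracted, Emilin2 and the macrophage mean correlated at -0.80 over the 6 arrays. This was not particular to macrophages, since the pericyte mean gave -0.81 and the myoepithelial and basal mean -0.72. The part of any of these cell types in the Emilin2 difference was not tested.

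Fbln2 encodes fibulin-2, which binds fibrillin, fibronectin and basement membrane proteins. Its signals were 13.25, 13.05 and 13.14 on the null arrays and 12.62, 12.90 and 12.79 on the wild-type arrays. The groups did not overlap, with 0.15 between the lowest null and the highest wild-type array. The difference was 0.37 (SE 0.12), or 1.30-fold, with a 95% interval of 0.09 to 0.66 (limma adjusted p = 0.379). Emilin1 and Fbln2 were the 2 of 9 genes without overlap, where 10.1% of all genes were higher on every null array than on any wild-type array and 15.8% did not overlap in either direction.

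Fbn2 encodes fibrillin-2, the fibrillin of developing microfibrils, and it had the largest mean difference of the 9 genes and also the widest error. On the null arrays it read 8.81, 8.68 and 8.57, a range of 1.18-fold. On the wild-type arrays it read 9.79, 5.63 and 7.18, a range of 17.8-fold, so that the wild-type group held both the highest and the lowest array. The wild-type SD of 2.10 was the 4th largest of 22180 genes, while 62.8% of genes had a null SD at least as large as that of Fbn2 (0.12). The difference of 1.15 (SE 0.88) had a 95% interval of -0.90 to 3.21 (limma adjusted p = 0.698). It was 2.28 without the first wild-type array and 0.20 without the second.

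Fbln1 encodes fibulin-1, a binding partner of fibronectin and of basement membrane proteins. It read 7.87, 7.98 and 7.47 on the null arrays and 8.77, 5.91 and 6.86 on the wild-type arrays, in the same order of wild-type arrays as Fbn2. The difference was 0.60 (SE 0.63, 95% interval -0.86 to 2.05; limma adjusted p = 0.788). Without the first wild-type array it was 1.39, and without the second it changed sign to -0.04.

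Mfap2 encodes MAGP-1, a small glycoprotein bound to fibrillin along microfibrils. It read 9.21, 8.33 and 8.82 on the null arrays and 9.63, 7.24 and 8.18 on the wild-type arrays, again highest on the first and lowest on the second wild-type array. The difference was 0.44 (SE 0.55, 95% interval -0.83 to 1.70; limma adjusted p = 0.828), and it was 1.08 without the first and -0.12 without the second wild-type array.

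Fbln5 encodes fibulin-5, which guides elastin onto microfibrils during fibre assembly. Its signals were 10.32, 10.41 and 10.24 on the null arrays and 10.48, 9.55 and 9.94 on the wild-type arrays. The wild-type range was 1.91-fold and the null range 1.13-fold, and the first wild-type array lay above all null arrays. The difference was 0.33 (SE 0.22, 95% interval -0.18 to 0.85; limma adjusted p = 0.645), and it was 0.58 without the first and 0.11 without the second wild-type array.

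Fbn2, Fbln1, Fbln5 and Mfap2 therefore shared 1 order of the wild-type arrays. After each group's mean was subtracted, their 6 pairs correlated at 0.89 to 0.99 over the 6 arrays. The genes were grouped by that shared order, so high values were built in. These values rest mainly on the wild-type arrays, where Fbn2 lay 2.25, -1.90 and -0.35 from its group mean. On the null arrays Fbn2 lay only 0.12, -0.006 and -0.11 from its group mean. The genes did not share an order there: Mfap2 was lowest on the second null array and the others on the third. The correlations are a description only, since on each array the genes are read from the same RNA. Among wild-type arrays 7 of the 9 genes were highest on the first and 5 were lowest on the second. Of the 7, Emilin1 was higher on the first than on the second by only 0.0089. The share of all genes highest on the first wild-type array was not counted. When limma weighted the arrays by their spread over all genes, that array had the lowest of the 6 weights (0.522). Fbln2 went the other way, lowest on the first wild-type array, and correlated at -0.79, -0.81, -0.85 and -0.56 with Fbn2, Fbln1, Fbln5 and Mfap2 on the same scale. The SD was larger in the wild-type than in the null group for 7 of the 9 genes, with Emilin2 and Mfap5 as the exceptions. Eln, among the 7, had nearly equal SDs (0.671 and 0.670). Over all genes the median SD was 0.17 in the wild-type and 0.15 in the null group. The share of all genes with the larger SD in the wild-type group was not counted.

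The first wild-type array also had the highest fibroblast marker mean, 10.95, against 9.75 and 9.89 on the other wild-type arrays. Of the 10 fibroblast markers Lum, a collagen-binding proteoglycan, read 9.76, 6.21 and 7.46 on the wild-type arrays and from 5.72 to 8.50 on the null arrays. Dpt, dermatopontin, read 9.94, 6.82 and 7.17 on the wild-type arrays. Lum and Dpt had the largest wild-type SDs of the 10 markers (1.80 and 1.71). Only Col1a2 was not highest on the first wild-type array (12.53, 12.68 and 12.66). Thy1 (11.28, 11.16 and 11.09) and Col1a1 (12.89, 12.56 and 12.84) were highest there by small margins. Fibroblast markers were not alike, since Col1a1, Col1a2 and Col3a1 were higher on every null array than on any wild-type array, where 10.1% of all genes were, while 6 of the 10 had lower means in the null group. The fibroblast mean correlated within groups at 0.83 with Fbn2, 0.89 with Fbln1, 0.88 with Fbln5, 0.62 with Mfap2 and -0.93 with Fbln2. It was also high with Mfap5 (0.91) and Eln (0.81), which do not share that order of arrays. The mean of the endothelial markers went the opposite way, but its members differed. Emcn, endomucin, read 3.70, 7.76 and 6.15 on the wild-type arrays and 4.37, 5.13 and 4.28 on the null arrays. Tek, an angiopoietin receptor, had the order of Fbn2, at 7.74, 5.73 and 6.14 on the wild-type arrays, and a higher null mean (difference 0.43). The mean of the 5 endothelial markers correlated within groups at -0.94 with Fbn2, -0.92 with Mfap2, -0.89 with Fbln5 and -0.88 with Fbln1. Of these markers Pecam1 (5.17 to 5.91) and Kdr (4.94 to 6.04) lay near the array medians. Emcn had the largest wild-type SD of the 5 (2.04). The part of either cell type in the spread of these genes was not tested.

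**Figure D2:**
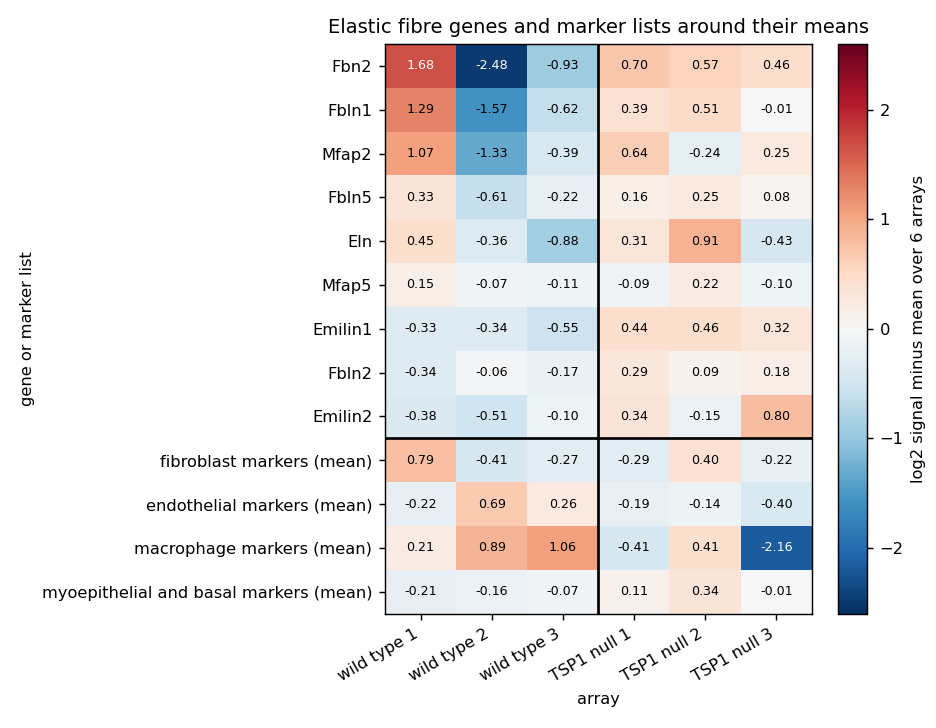
Log2 signal of each gene, and of the mean of each of 4 marker lists, minus its mean over the 6 arrays (colour, with the value printed), with wild-type arrays on the left and TSP1 null arrays on the right of the vertical line. Fbn2, Fbln1, Mfap2 and Fbln5 share the high first and low second wild-type array, and Emilin1 and Fbln2 are positive on the 3 null arrays and negative on the 3 wild-type arrays.

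With the first wild-type array left out, 6 of the 9 genes did not overlap between the groups (Fbn2, Fbln1, Fbln2, Fbln5, Emilin1 and Mfap2), where 16.8% of all genes were higher on every null array. The number at an unadjusted p under 0.05 was then 7, all but Emilin2 and Mfap5, where 6.73% of all genes were higher at that limit. Without the first null array it was 1 (Emilin1), where 4.02% of all genes were higher at the limit. Without the second null array it was 3 (6.76% of all genes) and it was 2 without the third null array (3.9%). Without the second wild-type array it was 2 (5.81%), with 6 of the 9 differences positive, and it was 3 without the third wild-type array (5.14%). The genes without overlap numbered 2, 3 and 2 when null array 1, 2 or 3 was left out (14.1%, 18.2% and 13.9% of all genes), and 2 and 3 when wild-type array 2 or 3 was (16% and 15.5%). No gene of the list passed an adjusted p of 0.05 in any of the 6 fits that left out an array.

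**Figure D3:**
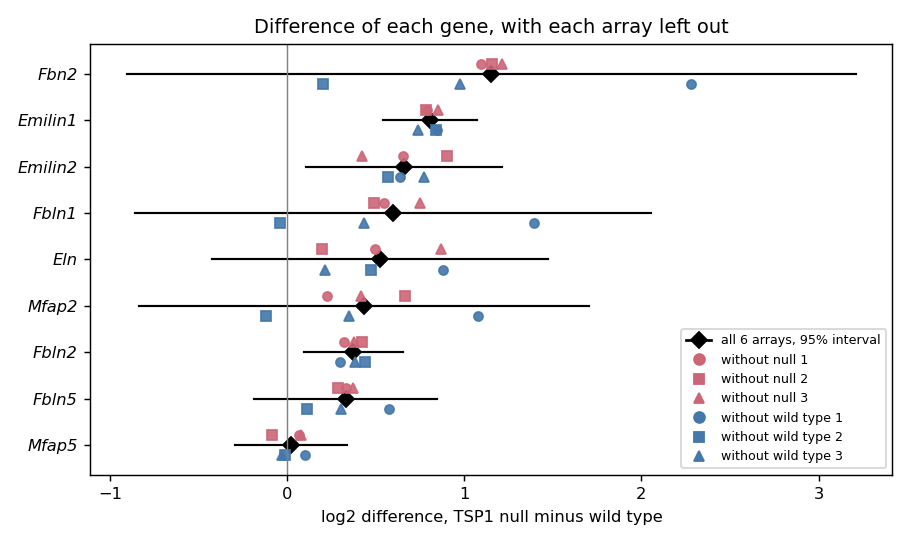
Log2 difference, TSP1 null minus wild type (horizontal axis), of each of the 9 genes with all 6 arrays (diamond, with its 95% interval) and with each array left out (coloured markers). The points of Emilin1 lie between 0.74 and 0.85, and those of Fbn2 between 0.20 and 2.28.

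Eln encodes tropoelastin, the soluble precursor of the fibre core. It read 6.50, 7.10 and 5.77 on the null arrays and 6.65, 5.84 and 5.32 on the wild-type arrays. The groups overlapped. Its lowest signals lay close to the array medians, where differences of log2 signals are compressed. The difference was 0.52 (SE 0.41, 95% interval -0.43 to 1.47; limma adjusted p = 0.704), and it ran from 0.20 without the second null array to 0.88 without the first wild-type array. Among 2714 named genes with a mean of at least 7 and an SD of at least 0.25, those most like Eln over the 6 arrays were Pik3r3, a PI 3-kinase regulatory subunit (Pearson r = 0.951), Mmp2, a gelatinase (0.949), and Aldh1a2, which makes retinoic acid (0.926). Aldh1a2 read 8.49, 9.84 and 8.27 on the null arrays and 9.31, 7.16 and 6.94 on the wild-type arrays, highest in each group on the array where Eln was highest.

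Mfap5 encodes MAGP-2, the other microfibril-associated glycoprotein of the list. It read 12.33, 12.63 and 12.31 on the null arrays and 12.56, 12.34 and 12.31 on the wild-type arrays. The means differed by 0.02 (SE 0.14), with a 95% interval of -0.30 to 0.34 (limma adjusted p = 0.974), and its sign changed when the second null, the second wild-type or the third wild-type array was left out (-0.08 to 0.10 over the 6 fits).

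The genes that build, hold or degrade elastic fibres were read from further lists, and 0 of their genes passed an adjusted p of 0.05 with limma in either direction. Counts here are at an unadjusted p under 0.05, beside 6.28% of all genes on the higher side and 4.27% on the lower side. Of the 4 measured cross-linking enzymes 2 were higher and 0 lower, with a median difference of 0.33. Loxl4, a lysyl oxidase, read 7.27, 6.97 and 7.13 on the null arrays and 6.41, 6.34 and 6.65 on the wild-type arrays (difference 0.66, SE 0.13; limma adjusted p = 0.25). Loxl1, the lysyl oxidase tied to elastin upkeep, read 11.40, 11.27 and 11.15 against 10.81, 10.64 and 10.98 (difference 0.46, SE 0.13; limma adjusted p = 0.338). Neither enzyme overlapped between the groups, where 10.1% of all genes were higher on every null array. Lox itself had a difference of 0.11 (SE 0.11), from 0.078 to 0.17 with an array left out.

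All 4 latent TGF-beta binding proteins had higher means in the null group, with 2 at the unadjusted limit and a median difference of 0.46. Ltbp2, which lacks TGF-beta binding, read 10.56, 10.51 and 10.28 on the null arrays and 10.00, 10.09 and 9.87 on the wild-type arrays. Ltbp3 read 9.58, 9.36 and 9.25 against 8.98, 8.99 and 8.87. Neither gene overlapped between the groups, again beside 10.1% of all genes, with limma adjusted p of 0.324 for Ltbp2 and 0.325 for Ltbp3.

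The other fibulins, EMILIN relatives and MFAP genes did not show higher means, with 2 of 9 positive, a median of -0.08 and 0 at the unadjusted limit. Emilin3 read 4.53 to 4.86 on the null and 4.90 to 5.00 on the wild-type arrays (difference -0.28, SE 0.12; limma adjusted p = 0.479), below the array medians and without overlap, where 5.75% of all genes were lower on every null array. Mfap3l had a difference of -0.56 (SE 0.28). Leaving out the third null array gave -0.29 for Mfap3l. Mfap4, a microfibril protein that binds elastin, read 9.07, 6.83 and 6.69 on the wild-type arrays against a null mean of 7.37, and was again highest on the first wild-type array. Its difference of -0.16 changed to 0.61 without that array. It was -0.51 without the second and -0.58 without the third wild-type array. Without null arrays 1, 2 and 3 it was -0.14, -0.36 and 0.025.

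Of the 9 fibrillin-processing and microfibril ADAMTS genes, 7 were positive and 1 was at the unadjusted limit. This was Furin, the convertase that trims fibrillin precursors, at 9.75, 9.59 and 9.66 against 9.25, 9.44 and 9.47 (difference 0.28, SE 0.11; limma adjusted p = 0.455). Adamts6 had a difference of 0.22 (SE 0.14), which was 0.098 without the first and 0.35 without the second null array. Of 6 matrix partners 1 was at the limit and higher, Hspg2, the basement membrane proteoglycan perlecan (0.33, SE 0.13), and Fn1, fibronectin, had 0.26 (SE 0.11). The median of these 6 was 0.01.

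Among 11 cell receptors of elastic fibre proteins 0 were higher and 1 was lower at the limit. Itga4, the integrin chain through which cells can bind EMILIN-1, read 7.06, 7.65 and 6.20 on the null arrays and 7.89, 8.50 and 8.79 on the wild-type arrays (difference -1.42, SE 0.37; limma adjusted p = 0.321). The groups did not overlap, where 5.75% of all genes were lower on every null array. Itga5, a fibronectin receptor chain, had a difference of 0.45 (SE 0.28), which was 0.13 without the first and 0.72 without the third wild-type array. Itga4 is also made by leukocytes, and its lowest array, the third null array, was that of the lowest macrophage markers, whose part was not tested.

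Of 11 elastin-degrading proteases 1 was higher and 1 lower at the limit. Mmp14, a membrane-bound collagenase, read 11.97, 11.99 and 11.99 on the null arrays and 11.42, 11.73 and 11.73 on the wild-type arrays (difference 0.36, SE 0.12; limma adjusted p = 0.391). Ctss, a cathepsin of macrophages, read 10.35, 11.08 and 8.51 against 10.83, 11.80 and 11.89 (difference -1.52, SE 0.61; limma adjusted p = 0.454). Leaving out the third null array moved the Ctss difference to -0.79. Of 6 protease inhibitors 0 were at the limit, with Timp3 at -0.42 (SE 0.25) and Cst3 at -0.13 (SE 0.18). Without the third null array Timp3 was at -0.24 and Cst3 at 0.0038, and without the second Timp3 was at -0.72 and Cst3 at -0.32.

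Of 9 genes for TGF-beta ligands, receptors and SMADs, 2 were higher and 2 lower at the limit. Tgfb3 read 10.62, 10.90 and 10.45 on the null arrays and 10.24, 10.31 and 10.24 on the wild-type arrays (difference 0.39, SE 0.14; limma adjusted p = 0.398). Smad3, a signal carrier of the pathway, had a difference of 0.38 (SE 0.14). The 2 lower genes were Tgfb1 at -0.58 (SE 0.25) and the receptor gene Tgfbr1 at -0.48 (SE 0.19). Both were lowest on the third null array, that of the lowest macrophage markers, and without it they were at -0.32 and -0.30. The part of macrophages in these differences was not tested.

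**Figure D4:**
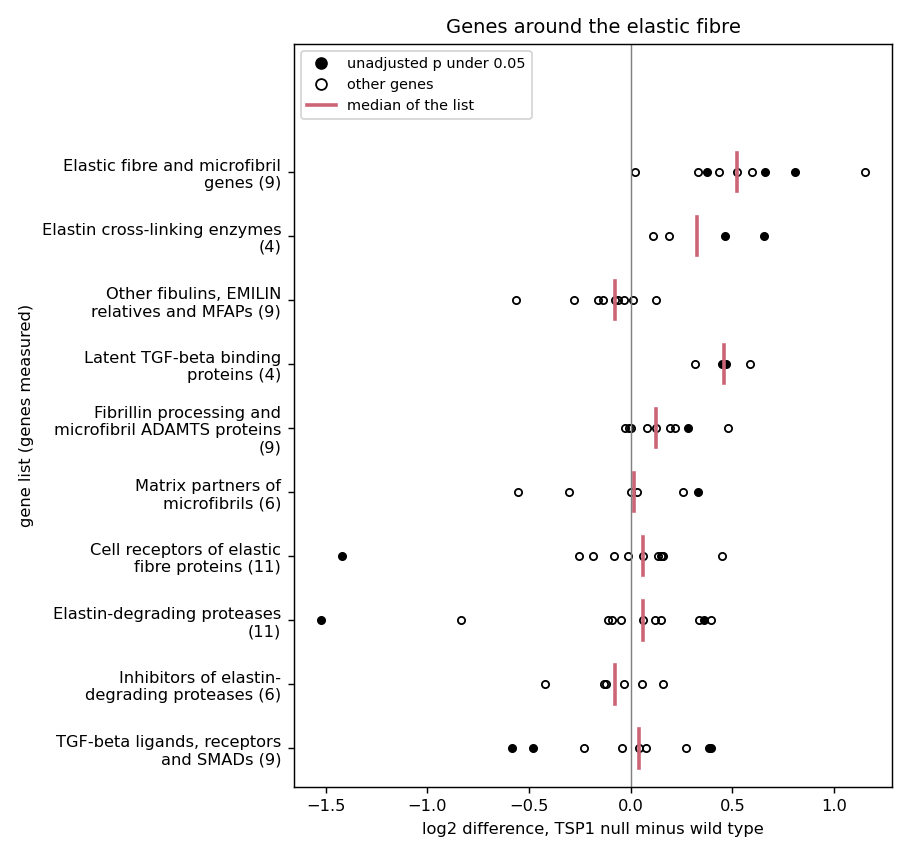
Log2 difference, TSP1 null minus wild type (horizontal axis), of each gene in the elastic fibre list and 9 further lists (rows, with the number of genes measured); filled points have an unadjusted p under 0.05 and the red bar is the list's median. The elastic fibre, cross-linking and latent TGF-beta binding protein genes lie on the positive side with medians of 0.52, 0.33 and 0.46, and the other lists have medians between -0.08 and 0.12.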

How the data were processed

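The deposited table holds the authors' log2 signals on 6 arrays for 41345 probe sets. Per the submitters' processing notes RMA and Partek were used. Tool versions, settings and the build behind the probe sets: not given in the sources used here. RMA signals have a background floor, which compresses differences of dim probe sets. Probe sets with 1 symbol in the platform annotation (23521) were tested, the brightest per gene, which left 22180 genes; the 9 measured members matched RefSeq by Entrez ID. Groups were compared with limma 3.58.1 in R 4.3.3 (lmFit, eBayes, two-sided, Benjamini-Hochberg adjustment over all genes, threshold 0.05), without covariates or an intensity filter, after a test on simulated data. With 3 arrays per group an exact permutation test cannot go below 0.1, so none was used. Arrays have no sequencing depth, and their number limits the precision.

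The members and lists were chosen with earlier results of these data known, and no list was tested as a set. Named were all members, Thbs1, the 2 genes of smallest p per list and the 3 genes most like Eln. Lox, Mfap4, Tgfb1, Tgfbr1 and the marker genes were added after their values were seen. Alternatives were quantile normalization, median centring, a filter on dim probe sets, averaging probe sets, every probe set, other priors, array weights, a replicate block and leaving out each array. Figures used Python 3.11.15 and matplotlib 3.10.9.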

Additional observations from a re-analysis of the deposited data

How the results depend on the processing

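Emilin1, Fbln2, Emilin2, Eln, Fbn2 and Fbln5 kept a positive difference in all 15 alternatives, and no gene of the list passed an adjusted p of 0.05 in any. Several alternatives could not change these differences, since each gene has 1 probe set and the groups are balanced. These were the filter on dim probe sets, averaging, every probe set, other priors, an ordinary linear model and the replicate block. The differences of Fbln1 (-0.04 to 1.39), Mfap2 (-0.12 to 1.08) and Mfap5 (-0.08 to 0.10) changed sign when an array was left out (Fbln1 -0.038 and Mfap2 -0.121 without the second wild-type array; Mfap5 -0.0838 without the second null, -0.011 without the second and -0.0286 without the third wild-type array), as did Cst3 (-0.32 to 0.0038). With an array left out, 0 to 34 genes of all passed the adjusted threshold, 34 of them without the second null array, and 1487 to 2736 had an unadjusted p under 0.05. The counts of list genes at that limit ran from 1 to 7, those without overlap from 2 to 6, and the list median from 0.20 to 0.85. Testing every probe set gave 2 past the threshold and 3766 at the unadjusted limit, with 41345 tested in place of 22180. The labels do not say whether equal replicate numbers mark pairs. Deviations of same-numbered arrays correlated at -0.144, 0.184 and -0.162, and only the second pair was best matched to its own number. With 3 arrays per group, centred on their mean, these values cannot decide whether the arrays are paired. A replicate block lowered the SE of Eln, Fbn2, Fbln1, Fbln5, Emilin2 and Mfap2 (Mfap2 from 0.55 to 0.29). It raised that of Fbln2, Emilin1 and Mfap5 (Fbln2 from 0.12 to 0.14). With the replicate block 3 of the 9 genes and 2215 of all were at the unadjusted limit and 0 passed. With 3 arrays per group, the 95% interval of Fbn2 spans both signs.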
